A study of Mus musculus with 3 samples.

Results

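Aminoacyl-tRNA synthetases are the enzymes that load each transfer RNA with its amino acid. Their genes were followed in mouse CAD cells, a catecholaminergic neuroblastoma line of the central nervous system, after knockdown of polypyrimidine tract binding proteins. The 34 members were the clusters of the deposited gene table that carry a listed synthetase symbol among their aliases, out of 27389 clusters in all. They comprise 20 mainly cytosolic enzymes and 14 mitochondrial enzymes, the latter with symbols ending in 2. The rule goes by names, and levels enter it only where a symbol has several rows, of which the highest is kept. That was so for Vars2 alone: an older symbol of Vars is spelled alike, and keeping the higher row would have given 33 distinct rows. Vars2 was therefore taken, against the rule, from the row at its annotated position. All 34 members reached 1 CPM (CPM is the read number scaled to library size) in every pair of libraries, so none was lost to a filter on low values.

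A synthetase first activates its amino acid with ATP and then transfers it to the matching transfer RNA, and some members also hydrolyse wrongly charged products. The family falls into 2 structurally unrelated classes, class I and class II, each with its own catalytic fold. Most amino acids have a cytosolic and a mitochondrial enzyme encoded by separate genes, while Gars (glycine) and Kars (lysine) serve both compartments. Several cytosolic members sit together in the multisynthetase complex around scaffold proteins. When amino acids are scarce or the endoplasmic reticulum is under stress, the transcription factor ATF4 is known to induce many cytosolic members through C/EBP-ATF response elements. In the nervous system, inherited variants of cytosolic members such as Gars and Yars are known from peripheral neuropathies, and those of mitochondrial members from disorders of the brain.

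Each of the 3 groups had 1 library of poly(A)+ RNA, taken 72 h after transfection. The first group received control ON-TARGETplus siRNAs, the second siRNAs specific for Ptbp1, which encodes a splicing regulator of most non-neuronal cells, and the third siRNAs specific for Ptbp1 and for its neuronal paralogue Ptbp2. All 3 groups were the same cell line, transfected with the same lipid reagent, and the labels name no further genotype, agent or batch. The series concerned control of neuronal transcripts through intron retention, whereas the values here are totals per gene that do not separate spliced from unspliced RNA. Because a group is 1 library, no difference has a replicate check and no p-value is given. Folds are ratios of CPM and carry exact 95% intervals computed from the reads, which hold counting error and nothing else. Reads amplified by PCR without molecular identifiers are not independent molecules, so even these intervals may be too narrow.

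All clusters together had 16011466 control reads, 16899549 with Ptbp1 siRNA and 14242495 with both siRNAs, and 1 CPM stood for 15.5, 17.2 and 14.5 reads. Ptbp1 itself had 7191, 1486 and 1516 reads in that order, and Ptbp2 had 784, 3044 and 633. Ptbp1 was thus 5.38-fold and 4.43-fold lower than in the control. Ptbp2 was 3.49-fold higher than in the control after Ptbp1 siRNA alone and only 1.16-fold lower after both siRNAs. Below, double knockdown names the library that received both siRNAs. All 9 catecholaminergic and neuronal markers reached 1 CPM, with summed levels of 3158, 2996 and 3344 CPM. Single markers differed in both directions. Dbh was 1.98-fold and 2.32-fold above the control after Ptbp1 siRNA and after both siRNAs, and Stmn2 1.42-fold and 1.40-fold below it. Fibroblast markers (2 of 6 at 1 CPM, Col1a2 listed at 0) summed to 5.25 to 9.49 CPM, astrocyte markers (1 of 5, Slc1a3 at 0) to 1.38 to 2.58 CPM, blood markers (0 of 3, Hba-a1 at 0) to 0.349 to 0.415 CPM and endothelial markers (2 of 3) to 11.6 to 22.0 CPM. The fibroblast, astrocyte and endothelial sums were highest in the control library and lowest after both siRNAs, and their part in the differences below was not tested. Each of these sums rested mostly on 1 gene. These were Col1a1 (7.88, 5.11 and 3.32 CPM), Slc1a2 (2.26, 1.34 and 1.31 CPM) and Pecam1 (21.6, 15.1 and 11.1 CPM). Pdgfra (1.29, 1.22 and 1.52 CPM) and Cdh5 (0.387, 1.51 and 0.277 CPM) had other orders. In bulk RNA, fewer cells of a kind and less RNA per cell cannot be told apart.

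Promoter sequences were read for the members because the cytosolic ones mostly differed in the same direction. The RefSeq windows of the GRCm38.p6 build, from 250 bases before to 50 after an annotated start, covered 26 of the 34 members. Cars, Hars, Lars, Nars, Rars, Vars, Wars and Pars2 had no window. The core of the C/EBP-ATF response element, searched as TGATGNAA on both strands, was found in 5 of the 26 members, namely Aars, Gars, Iars, Tars and Yars. It was found for 4.51% of the 27025 genes in the table, and in 3.97% of its 32851 windows of this length. All 5 belong to the 8 members with a window that are known to be induced through ATF4, and none of the other 18 members held it. That list consists of genes known to respond through this element, so the overlap is not independent of it. A match of each of the 5 genes is shown with its surroundings, 5′ to 3′ on the strand of the gene, and capitals mark the element. All but that of Yars read as the reverse complement. Distances are from the start to the first capital. Aars holds a further match of the element, 112 bases before the start, which is not shown.
Aars, chr8:111033840-111033869, plus strand, after the start: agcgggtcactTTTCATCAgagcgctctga
Gars, chr6:55037960-55037989, plus strand, 30 bases before the start: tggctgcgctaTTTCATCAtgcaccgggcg
Iars, chr13:49682126-49682155, plus strand, after the start: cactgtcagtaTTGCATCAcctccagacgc
Tars, chr15:11399655-11399684, minus strand, 15 bases before the start: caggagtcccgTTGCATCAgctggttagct
Yars, chr4:129189895-129189924, plus strand, after the start: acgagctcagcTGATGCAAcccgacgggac

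The E-box CACGTG, the palindrome bound by MYC and related factors, was also found in 5 of the 26 members (Aars, Ears2, Farsb, Iars and Tars), against 8.09% of all genes and 7.15% of all windows. No match of this motif overlapped one of the response element. The sites of Aars, which carries both motifs, and of Farsb, the cytosolic member with the largest difference after both siRNAs, are shown with the E-box in capitals.
Aars, chr8:111033684-111033713, plus strand, 146 bases before the start: agtcaaccctgtCACGTGacactccatgtc
Farsb, chr1:78488919-78488948, minus strand, 39 bases before the start: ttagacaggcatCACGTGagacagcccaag

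The 250 bases upstream of Tars and of Qars are given in full, because Tars holds both motifs in its window and Qars was the only cytosolic member lower in both knockdown libraries. Qars holds neither motif, and so do Dars, Farsa and Kars, which were higher in both. The element of Tars is in capitals, its E-box lies after the start, and the GC contents of these stretches are 57.6% and 56%. Over the 250 bases before the start in the members' 27 windows the median GC content was 56.8%, against 52.4% over the same part of all windows. A match describes these letters only, and the absence of a match in this window says nothing about the factor.
Tars, chr15:11399659-11399908, minus strand: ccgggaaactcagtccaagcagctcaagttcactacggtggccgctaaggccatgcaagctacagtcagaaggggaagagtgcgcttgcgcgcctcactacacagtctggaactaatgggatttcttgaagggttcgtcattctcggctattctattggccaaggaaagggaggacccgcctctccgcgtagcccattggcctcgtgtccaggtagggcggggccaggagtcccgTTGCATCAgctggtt
Qars, chr9:108507755-108508004, plus strand: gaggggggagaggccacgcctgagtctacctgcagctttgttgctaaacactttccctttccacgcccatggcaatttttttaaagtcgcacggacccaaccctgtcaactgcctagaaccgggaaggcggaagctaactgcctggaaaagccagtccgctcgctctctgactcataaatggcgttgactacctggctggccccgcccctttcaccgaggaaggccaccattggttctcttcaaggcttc

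Per length, the cytosolic enzymes were expressed well above the mitochondrial ones. In the control library the median deposited RPKM was 53.0 over the 20 cytosolic members and 5.35 over the 14 mitochondrial members. Gars, the glycyl enzyme of both compartments (mm9 chr6:54987995-55029498), was highest with 212, 243 and 264 RPKM in the control, Ptbp1 siRNA and double siRNA libraries. Kars, Aars and Lars2 followed in the control library with 149, 109 and 104 RPKM. Wars, which charges tryptophan and is also known as an interferon-responsive gene (chr12:110098242-110132347), was the lowest cytosolic member with 9.06, 12.7 and 15.0 RPKM. Mars2, the mitochondrial methionyl enzyme (chr1:55294021-55296902), was the lowest of all with 1.16, 1.58 and 2.40 RPKM. Apart from Lars2, every mitochondrial member lay below every cytosolic member in the control library, the highest being Fars2 at 8.04 RPKM.

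**Figure D1:**
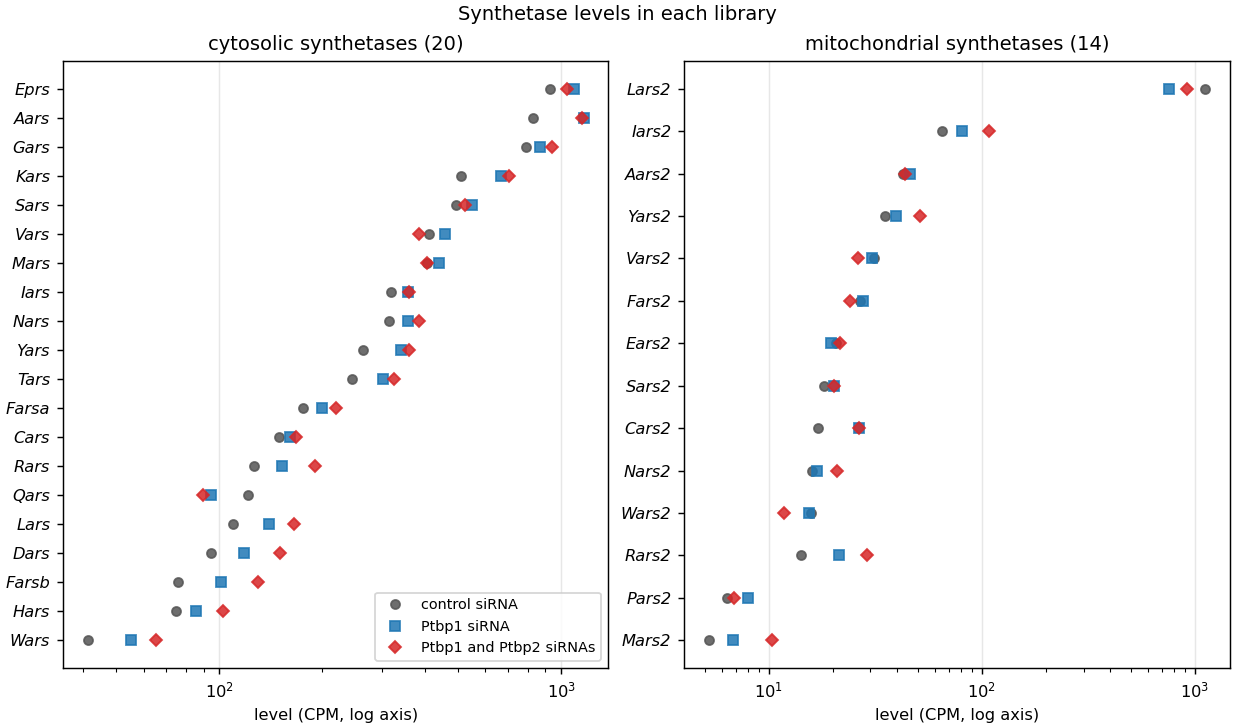
Level of each synthetase gene in CPM on a log axis, with 1 point per library (grey circle, control siRNA; blue square, Ptbp1 siRNA; red diamond, Ptbp1 and Ptbp2 siRNAs), cytosolic members on the left and mitochondrial members on the right in the order of the control level. The grey circle lies to the left of both other points for most cytosolic members. Qars in the left panel and Lars2, Vars2 and Wars2 in the right panel show the opposite.

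As a group, the cytosolic synthetases had higher scaled levels in each knockdown library than in the control. Their summed level was 6469 CPM for the control, 7693 CPM with Ptbp1 siRNA and 7855 CPM with both siRNAs. Against the control the sum was 1.19 times as high with Ptbp1 siRNA (1.18 to 1.20) and 1.21 times as high with both siRNAs (1.20 to 1.22). Eprs, Aars and Gars, which charge glutamate with proline, alanine, and glycine, were its 3 largest contributors in the control.

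After Ptbp1 siRNA, 29 of the 34 members lay above the control, against 48.5% of the 13399 genes tested in this pair (those with 1 CPM in the higher library). The cytosolic count was 19 of 20 and the mitochondrial count 10 of 14. The differences were small: the median on the log2(CPM + 1) scale was 0.22 for cytosolic members, with a range of -0.35 to 0.49, and 0.13 for mitochondrial members, while the median of all genes tested was -0.01. This scale understates differences of low genes. Only Cars2 was called higher by 1.5-fold, that is with a difference of at least 0.585, 1 CPM and an interval without 1. No member was called lower, and the calls over all genes were 2.93% higher and 3.46% lower, so a single call among 34 is near the background. The counting interval lay above 1 for 23 members and below 1 for 2, against 21.1% and 26.2% of all genes. An interval excludes 1 more readily for genes with many reads, as most cytosolic members have.

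After both siRNAs, 27 of the 34 members lay above the control, against 48.9% of the 13465 genes tested. The cytosolic count was 17 of 20 with a median difference of 0.36 and a range of -0.44 to 0.76. The mitochondrial count was 10 of 14 with a median of 0.12 and a range of -0.38 to 0.97. By the 1.5-fold limit 8 members were called higher and none lower, against 7.23% of all genes called higher and 10% called lower. The 8 were the cytosolic Dars, Farsb, Lars and Wars and the mitochondrial Cars2, Iars2, Mars2 and Rars2. The counting interval was above 1 for 23 members and below 1 for 5, against 29% and 32.1% of all genes. No member was called at 2-fold, where 1.05% of all genes were called higher and 2.67% lower. Rars2 had a CPM ratio of 2.03, but its difference of 0.97 on the log2(CPM + 1) scale lay below that limit. Both comparisons use the same control library, so their values are not independent of each other.

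**Figure D2:**
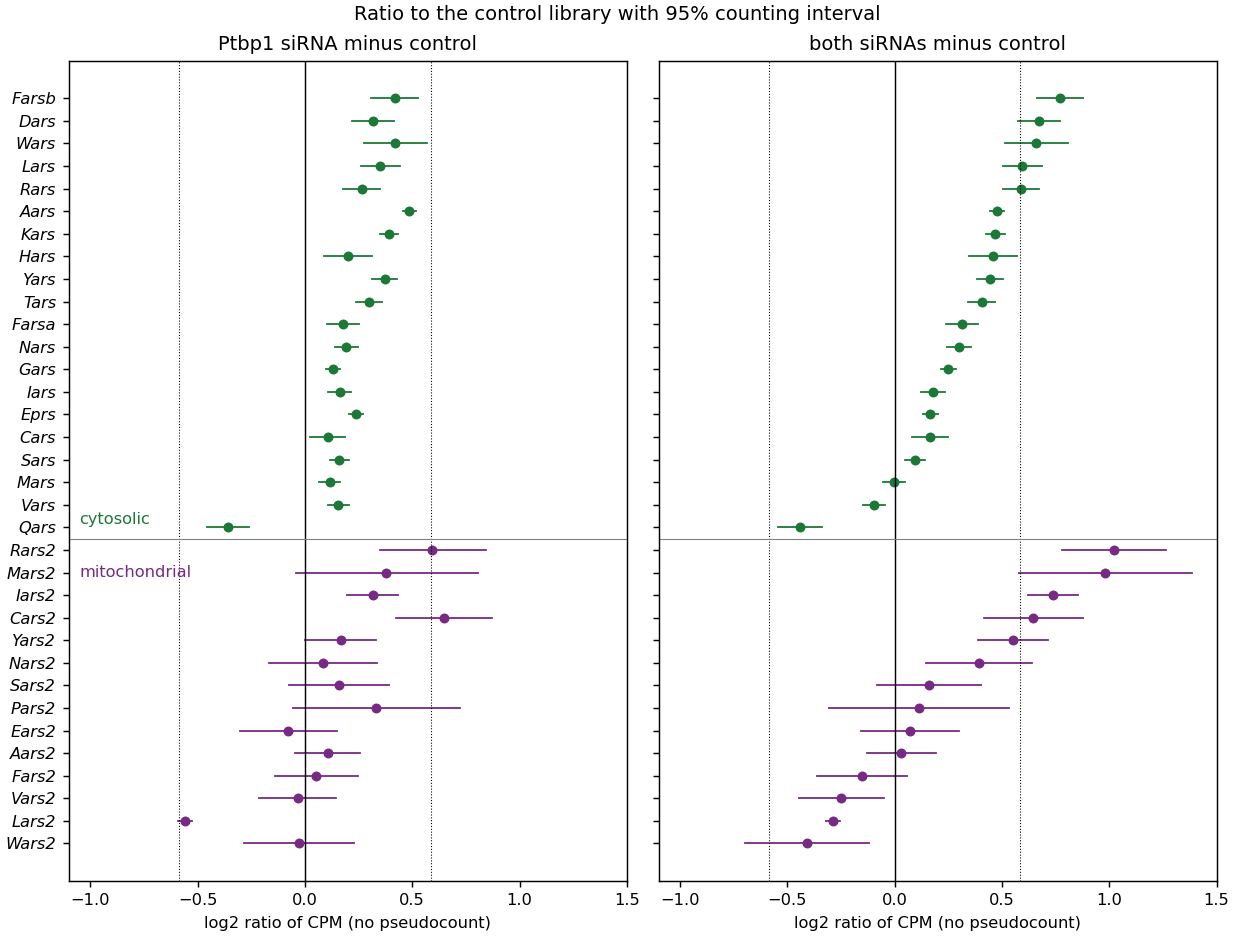
Log2 ratio of CPM to the control library for each member after Ptbp1 siRNA (left) and after both siRNAs (right), without a pseudocount; bars are 95% counting intervals, green marks cytosolic and purple mitochondrial members, and dotted lines mark 1.5-fold. Qars is the only cytosolic member left of 0 in both panels, and the mitochondrial members spread from Wars2, Lars2 and Vars2 on the left to Rars2 and Mars2 on the right after both siRNAs.

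Farsb, the beta subunit of the phenylalanyl enzyme (chr1:78421411-78485421), showed the largest cytosolic difference. It had 1174, 1742 and 1871 reads, or 75.8, 101 and 129 CPM. Its level was 1.34-fold higher than the control after Ptbp1 siRNA (1.24 to 1.44) and 1.71-fold higher after both (1.59 to 1.84). Farsa, the alpha subunit that forms the active enzyme with Farsb, had 2729, 3428 and 3167 reads, 1.13-fold (1.07 to 1.19) and 1.24-fold (1.18 to 1.31) above the control. The subunits of this enzyme thus differed in the same direction and by unequal amounts.

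Dars, the aspartyl enzyme of the multisynthetase complex (chr1:130260284-130313915), had 1463, 2028 and 2177 reads, or 94.5, 118 and 150.5 CPM. It was 1.25-fold (1.17 to 1.34) and 1.59-fold higher (1.49 to 1.70) than the control. Wars had 638, 948 and 942 reads, or 41.2, 55.1 and 65.1 CPM,, 1.34-fold (1.21 to 1.48) and 1.58-fold (1.43 to 1.75) above the control. Lars, the cytosolic leucyl enzyme and a leucine sensor of the mTORC1 pathway (chr18:42362255-42421725), had 1699, 2409 and 2395 reads, or 109.7, 140.0 and 165.6 CPM. Its ratios were 1.28 (1.20 to 1.36) and 1.51 (1.42 to 1.61). In these 3 genes the control was lowest and the double knockdown highest. Lars lay just inside the 1.5-fold limit with a difference of 0.589, and Rars, the arginyl enzyme, just outside with 0.584.

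Most cytosolic members shared that order. In 14 of 20 the level was lowest in the control, intermediate after Ptbp1 siRNA and highest after both siRNAs, an order found in 27.4% of all clusters at 1 CPM. For 12 of the 14 both steps exceeded counting error, while Cars and Iars did not differ beyond it between the knockdown libraries. The share of all clusters with both steps beyond counting error was not computed. Genes with many reads, such as most cytosolic members, exceed it more readily. Aars, Eprs and Sars were also above the control in both knockdowns but had their highest level after Ptbp1 siRNA. Aars, the alanyl enzyme (chr8:113557867-113580770), had the largest cytosolic difference after Ptbp1 siRNA, with 12854, 20016 and 16699 reads, or 830, 1163 and 1154 CPM. It was 1.40-fold higher after Ptbp1 siRNA (1.37 to 1.43) and 1.39-fold higher after both (1.36 to 1.42), and the levels in the knockdown libraries did not differ beyond counting error.

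The exceptions were Qars, Vars and Mars. Qars, the glutaminyl enzyme and a member of the multisynthetase complex (chr9:108410405-108418267), had 1879, 1629 and 1293 reads, or 121, 94.7 and 89.4 CPM. It was 1.28-fold lower after Ptbp1 siRNA (1.20 to 1.37) and 1.36-fold lower after both siRNAs (1.26 to 1.46), and 5.31% of the 36-base stretches of its exons occur elsewhere in the genome. Vars, the valyl enzyme (chr17:35138081-35153271), had 6340, 7844 and 5543 reads, or 409, 456 and 383 CPM. It was 1.11-fold higher than the control after Ptbp1 siRNA (1.08 to 1.15) and 1.07-fold lower after both (1.03 to 1.11). Mars, the methionyl enzyme whose product also starts every cytosolic protein (chr10:126733343-126748695), had 6288, 7568 and 5857 reads, or 406, 440 and 405 CPM. It was 1.08-fold higher after Ptbp1 siRNA (1.05 to 1.12), and its level after both siRNAs did not differ from the control beyond counting error.

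The members of the multisynthetase complex had medians near those of the other cytosolic genes. The complex list (Eprs, Iars, Lars, Mars, Qars, Rars, Kars and Dars) had median differences of 0.25 after Ptbp1 siRNA and 0.32 after both siRNAs, against 0.20 and 0.36 for the 12 cytosolic genes outside it. Within the complex the differences after both siRNAs ran from -0.44 for Qars to 0.67 for Dars. Among the scaffolds, Eef1e1 had 895, 1115 and 1173 reads, 1.40-fold above the control after both siRNAs (1.29 to 1.53). Aimp2 had 1616, 2147 and 1840 reads, 1.22-fold above the control (1.14 to 1.30). Aimp1, listed in the table under its older symbol, had 2106, 2115 and 1716 reads, 1.15-fold below the control (1.08 to 1.22), so none of the 3 scaffolds was called and they differed in opposite directions.

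Class II cytosolic members were above the control more evenly than class I members. All 10 lay above the control in both knockdowns, with medians of 0.25 and 0.43 and ranges of 0.13 to 0.49 and 0.10 to 0.76. Of the 9 class I cytosolic members, 8 lay above the control after Ptbp1 siRNA and 6 after both siRNAs, with medians of 0.16 and 0.18. Qars, Vars and Mars are all class I. Eprs, a fused enzyme with a class I and a class II domain, had 14331, 18787 and 15025 reads and differences of 0.24 and 0.17. The classes were not tested against each other.

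The 12 cytosolic members known to be induced through ATF4 were Aars, Cars, Eprs, Gars, Iars, Lars, Mars, Nars, Sars, Tars, Wars and Yars. All 12 were above the control after Ptbp1 siRNA and 11 after both siRNAs, with median differences of 0.22 and 0.27. The other 8 cytosolic members had medians of 0.23 and 0.46, so the list's median was not the larger in either comparison. Among the 5 genes with the response element shown above, the differences after both siRNAs were 0.48 for Aars, 0.25 for Gars, 0.18 for Iars, 0.40 for Tars and 0.44 for Yars. Tars, the threonyl enzyme, had 3784, 5173 and 4682 reads, or 244, 301 and 324 CPM, and Yars, the tyrosyl enzyme, had 4068, 5845 and 5174 reads, or 263, 340 and 358 CPM. Both had their lowest level in the control. Over the whole list these differences ran from -0.00 (Mars) to 0.65 (Wars), and over the other 8 cytosolic members from -0.44 (Qars) to 0.76 (Farsb).

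**Figure D3:**
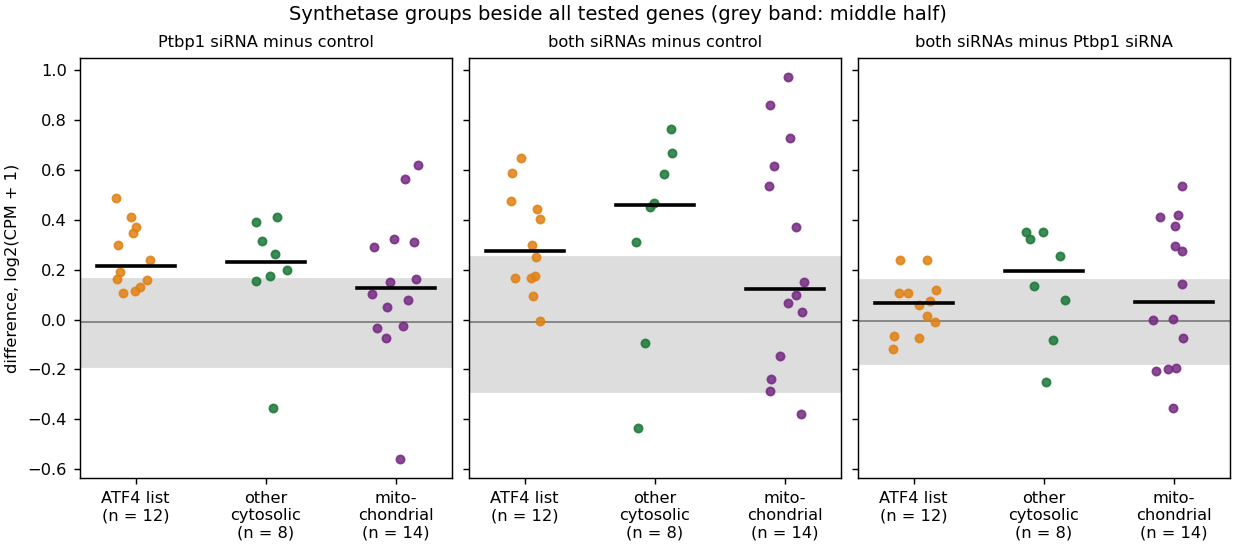
Difference on the log2(CPM + 1) scale in each of the 3 pairs of libraries for ATF4-list members (orange), other cytosolic members (green) and mitochondrial members (purple); black bars are group medians, and the grey line and band mark the median and the range from the 25th to the 75th percentile of all genes tested in that pair. The median bars of both cytosolic groups lie above the band in the comparisons with the control, those of the mitochondrial group inside it.

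Other genes of the integrated stress response and of amino acid supply differed in both directions. Atf4 itself, known to be controlled mainly in its translation, had 12587, 14102 and 11800 reads, or 813, 820 and 816 CPM, and no pair differed beyond counting error. Of the 27 tested genes of these lists, 17 lay above the control in each knockdown, against 48.5% and 48.9% of all genes, with medians of 0.09 and 0.04. The interval lay above 1 for 13 and below 1 for 3 after Ptbp1 siRNA, against 21.1% and 26.2% of all genes. With both siRNAs these counts were 11 and 6, against 29% and 32.1%. After both siRNAs 2 of the 27 were called higher and 1 lower, which is near or below the 7.23% and 10% of all genes. Atf5, a related transcription factor, had 339, 673 and 562 reads, 1.79-fold (1.57 to 2.04) and 1.77-fold (1.55 to 2.04) above the control. Psph, the last enzyme of serine synthesis, had 1150, 1654 and 1642 reads, 1.53-fold above the control after both siRNAs (1.42 to 1.65). Eif2ak3, the kinase PERK that senses stress of the endoplasmic reticulum, had 1789, 1251 and 881 reads, 1.59-fold (1.48 to 1.71) and 1.90-fold (1.75 to 2.06) below the control. Xpot, the export receptor of transfer RNA, had 3329, 4650 and 4418 reads, with differences of 0.33 and 0.50. Ddit3, the stress factor CHOP, named after its values were seen, had 1247, 2006 and 1163 reads and was 1.45-fold higher after Ptbp1 siRNA (1.35 to 1.56) and equal to the control within counting error after both.

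Among the mitochondrial synthetases the differences were spread more widely, and all but Lars2 rested on fewer reads than most cytosolic members. Without Lars2 the 13 genes summed to 313, 359 and 400 CPM, which is 1.14-fold (1.10 to 1.19) and 1.28-fold (1.23 to 1.33) above the control. The interval lay above 1 for 4 of the 14 after Ptbp1 siRNA and for 6 after both siRNAs, against 21.1% and 29% of all genes. It lay below 1 for 1 and for 3, against 26.2% and 32.1%. The other members' levels did not differ from the control beyond counting error at this depth.

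Rars2, the mitochondrial arginyl enzyme known from pontocerebellar hypoplasia (chr4:34562227-34607413), had the largest difference of all members. It had 220, 369 and 417 reads, or 14.2, 21.4 and 28.8 CPM,, 1.51-fold (1.27 to 1.79) and 2.03-fold (1.72 to 2.40) above the control. Iars2, the isoleucyl enzyme (chr1:187110624-187153280), had 1004, 1388 and 1564 reads, or 64.8, 80.7 and 108 CPM,, 1.24-fold (1.15 to 1.35) and 1.67-fold (1.54 to 1.81) above the control. About 22.7% of its annotated exon bases are shared with Rab3gap2, whose part in this value was not tested. Mars2 had 81, 117 and 149 reads, or 5.23, 6.80 and 10.3 CPM. Its ratio was 1.30 after Ptbp1 siRNA, with an interval of 0.971 to 1.75, and 1.97 after both siRNAs (1.49 to 2.61). In all 3 genes the level was highest after both siRNAs.

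Cars2, the mitochondrial cysteinyl enzyme (chr8:11514021-11550744), had a different order. It had 262, 456 and 383 reads, or 16.9, 26.5 and 26.5 CPM,, 1.57-fold (1.34 to 1.83) and 1.56-fold (1.33 to 1.84) above the control in the knockdown libraries. The knockdown libraries were equal to each other within counting error. It was the single member called after Ptbp1 siRNA, and Rars2, with a difference of 0.56, was the next below the limit.

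Lower values were seen for Wars2, Vars2 and Lars2. Wars2, the tryptophanyl enzyme (chr3:98945013-99024126), had 243, 265 and 171 reads, or 15.7, 15.4 and 11.8 CPM, and was 1.33-fold lower after both siRNAs (1.09 to 1.62). Vars2, the valyl enzyme (chr17:35793335-35804537), had 483, 524 and 380 reads, or 31.2, 30.5 and 26.3 CPM, and was 1.19-fold lower after both siRNAs (1.04 to 1.36). After Ptbp1 siRNA alone both were at the control level within counting error. Fars2, with 413, 476 and 347 reads, did not differ from the control beyond counting error in either knockdown.

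Lars2, the mitochondrial leucyl enzyme (chr9:123276058-123371782), stood apart in level. It was the only mitochondrial member with an interval below 1 after Ptbp1 siRNA, while after both siRNAs Wars2 and Vars2 were lower as well. It had 17236, 12990 and 13214 reads, or 1113, 755 and 914 CPM. Its level was 1.47-fold lower after Ptbp1 siRNA (1.44 to 1.51) and 1.22-fold lower after both (1.19 to 1.25). With it, the 14 mitochondrial genes summed to 1427, 1114 and 1314 CPM, so the direction of the sum turns with this gene. Per length it was the only mitochondrial member above its cytosolic partner, at 104 RPKM against 19.8 RPKM for Lars in the control. Its last exon (chr9:123370617-123371782) holds a stretch of 398 bases beyond the coding part. Parts of this stretch are similar to 19 places in the genome, over 83 to 244 bases each and with 82.2% to 98.8% identity. In all, 6.52% of the 36-base stretches of its exons occur exactly elsewhere, against a median of 0 over the members. An unnamed cluster on chr16 that holds such a place (35966839 to 35983316) has deposited values of 85, 42 and -65, the last being the lowest in the table. No other cluster that holds such a place has a value below 0. Gphn, for example, has 955, 1055 and 898, and Cd44 has 3, 1 and 2. Whether reads of other places enter the Lars2 value was not tested.

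The cytosolic and mitochondrial enzymes for the same amino acid formed 14 pairs, with the fused Eprs set against Ears2 for glutamate and Pars2 for proline. In the control library the cytosolic enzyme was between 3.29-fold (Farsa over Fars2) and 82.1-fold (Mars over Mars2) higher per length in every pair except leucine. After Ptbp1 siRNA the partners were both above the control in 10 pairs and on opposite sides in 4. As 19 of 20 cytosolic members lay above it, this mostly repeats the mitochondrial 10 of 14. No share over all genes exists for pairs. Among the 10, the intervals of Aars2, Fars2, Mars2, Nars2, Pars2 and Sars2 held 1. Of the 4, valine and tryptophan rest on Vars2 and Wars2, each at -0.03. Both lay above 0 under library-total scaling and in the deposited RPKM values. Glutamate rests on Ears2 at -0.07, whose interval (0.811 to 1.11) held 1. After both siRNAs the partners were both above the control in 9 pairs and both below in 1 (valine). They were on opposite sides in 4, which were phenylalanine, leucine, methionine and tryptophan. For phenylalanine, the interval of Fars2 held 1. The arginine pair had high values on both sides, with 0.58 for Rars and 0.97 for Rars2. For tryptophan Wars had a difference of 0.65 and Wars2 of -0.38. For methionine Mars stood at -0.00, a sign that turned under the same settings, and Mars2 at 0.86, and for leucine Lars at 0.59 and Lars2 at -0.28.

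**Figure D4:**
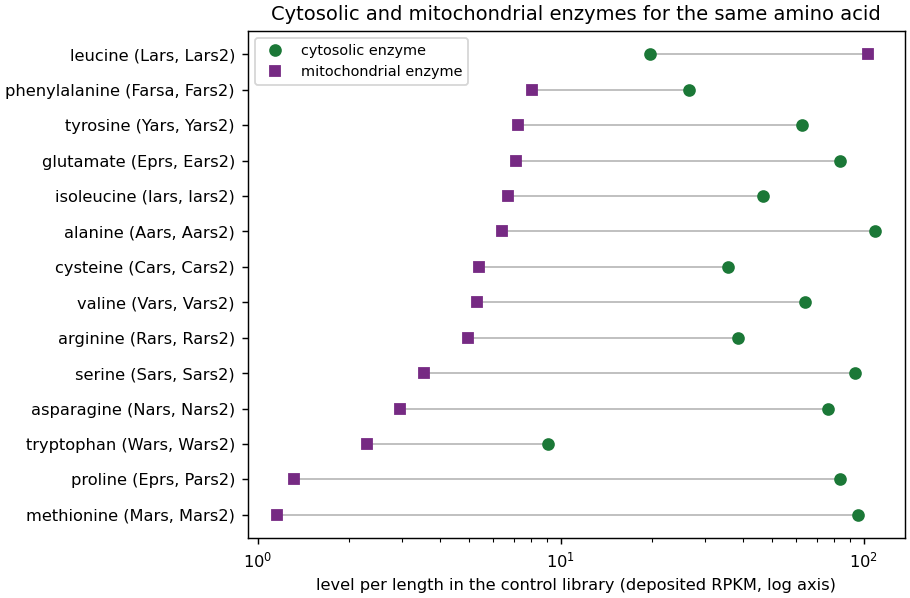
Deposited RPKM in the control library, on a log axis, of the cytosolic (green circle) and mitochondrial (purple square) enzyme for each of 14 amino acids, joined by a line. The mitochondrial square lies to the left in every row except leucine, where Lars2 stands at 104 and Lars at 19.8 RPKM.

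The double knockdown differed from the Ptbp1 knockdown by less, judged by the medians, than either differed from the control. Above the Ptbp1 siRNA library lay 22 of 34 members, against 49.4% of 13463 genes tested, with a median of 0.09 for cytosolic and 0.07 for mitochondrial members. None was called by 1.5-fold in either direction, against 1.83% of all genes called higher and 3.52% lower. At 2-fold the shares of all genes were 0.0891% and 0.342%. The interval was above 1 for 18 members and below 1 for 7, against 22.3% and 22.5% of all genes. Farsb and Dars, each 1.28-fold higher (1.20 to 1.36), and Rars, 1.25-fold higher (1.19 to 1.32), led the cytosolic members. Vars was lowest among them, at 1.19-fold lower (1.15 to 1.23). Iars2 and Rars2 were both 1.34-fold higher (1.25 to 1.44 and 1.17 to 1.55) and Mars2 1.51-fold higher (1.18 to 1.95), while Wars2 was 1.30-fold lower (1.07 to 1.59). Lars2 was 1.21-fold higher (1.18 to 1.24), between the control and the Ptbp1 knockdown.

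Other genes of transfer RNA charging and use were read from lists made for this family. Synthetase genes outside the member list included Tarsl2, Tars2 and Hars2, none of which was called. Tarsl2, a threonyl-like enzyme, had 298, 389 and 399 reads, 1.43-fold above the control after both siRNAs (1.23 to 1.67). Tars2, the mitochondrial threonyl enzyme, had 779, 1062 and 920 reads and a difference of 0.33 in the same comparison. Hars2, the mitochondrial histidyl enzyme that starts 160 bases from Hars on the opposite strand, had 359, 325 and 391 reads. It was 1.23-fold lower after Ptbp1 siRNA (1.05 to 1.43), whereas Hars, with 1155, 1475 and 1481 reads, was 1.15-fold higher (1.06 to 1.24).

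The genes of transfer RNA processing, modification and export had medians of 0.11, 0.37 and 0.18 in the 3 pairs, beside 0.18, 0.30 and 0.09 over all 34 synthetases. Of the 24, 19 lay above the control after both siRNAs, against 48.9% of all genes, and 4 were called higher and none lower, against 7.23% and 10%. Pop1, a protein subunit of RNase P and RNase MRP, had 309, 523 and 837 reads, 1.52-fold (1.32 to 1.76) and 2.90-fold (2.54 to 3.31) above the control. Trmt6, a subunit of a transfer RNA methyltransferase, had 895, 1233 and 1471 reads, 1.76-fold above the control after both siRNAs (1.62 to 1.91). Elac2, which cuts the 3′ ends of transfer RNA precursors, had 562, 739 and 863 reads, 1.64-fold above the control (1.48 to 1.83). Tsen15, a subunit of the splicing endonuclease of transfer RNA, had 391, 617 and 589 reads, 1.61-fold above the control (1.42 to 1.84).

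By contrast, the genes of transfer RNA delivery to the ribosome, carriers and exchange factors together, had medians near 0. For elongation factor 1 and its mitochondrial counterparts, 7 genes, these were -0.07 and -0.01 in the comparisons with the control. None was called, against 2.93% and 7.23% of all genes called higher and 3.46% and 10% called lower. Among 7 genes, no call is near those shares. Eef1a1, a carrier of charged transfer RNA, had 8977, 8170 and 6452 reads, 1.22-fold (1.18 to 1.26) and 1.30-fold (1.26 to 1.34) below the control. Its paralogue Eef1a2 had more reads in each library, 10105, 11036 and 9619, with differences of -0.02 and 0.03 from the control. Tsfm, the mitochondrial exchange factor, had 1381, 1594 and 1472 reads, 1.14-fold above the control after both siRNAs (1.06 to 1.23). Of 3 accessory genes of mitochondrial charging, Gatb, a subunit of the amidotransferase that makes glutaminyl transfer RNA, had 205, 352 and 285 reads. It was called higher after Ptbp1 siRNA, at 1.55-fold (1.30 to 1.84), and was 1.49-fold higher after both (1.24 to 1.79). Mtfmt and Qrsl1 did not differ from the control beyond counting error. Of 2 proofreading genes, Dtd1 was 1.43-fold higher after both siRNAs (1.25 to 1.62) and Aarsd1 1.15-fold lower (1.06 to 1.25).

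Some members have features of gene layout that bear on how their reads can be assigned. Of the 34, 9 start within 1000 bases of a gene on the opposite strand that points away from them, against 16.1% of the 13577 clusters at 1 CPM. The closest were Rars2 beside Orc3 at 34 bases and Fars2 beside Lyrm4 at 54 bases. More than 5% of the 36-base stretches of the exons occurred elsewhere in the genome for Iars (13.1%), Lars2, Yars (6.09%) and Qars. More than 5% of exon bases were shared with other annotated genes for Iars2, Farsb (10.8%, with Sgpp2), Hars (9.81%, with Hars2), Nars2 (6.74%) and Vars (5.42%). Repeated stretches and shared exon bases were computed for the members only, so no share over all genes stands beside them. Aars was the only member whose cluster overlapped another, that of Exosc6. For the other members no cluster of the table overlaps theirs. Whether the counting used strand is not stated in the sources used here, and what such places add to the values was not tested.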

How the data were processed

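Poly(A)+ RNA of 3 cultures was sequenced as 36-base paired ends, per the labels' protocols. The deposited table gives, per the file headers, a net read value and an RPKM value per cluster and library on mm9 (build per the submitters' processing notes). For the aligner and the read counter, nothing is stated in the sources used here. The deposited read values are a score, not plain counts: 38 clusters hold a value below 0, and what the authors subtracted is not stated. Those and 127 clusters without length were left out, and the other 27224 were treated as read numbers, so intervals are approximate. The table has no column of any other sample.

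Scaling factors came from a trimmed mean of M values (outer 30% by M and 5% by A removed, numpy 2.4.6) and were 0.967, 1.02 and 1.02. Differences are on the log2(CPM + 1) scale, and intervals are conditional binomial (Clopper-Pearson, scipy 1.17.1). The plan allowed for counts, and the count form was kept. The script was tested on simulated data. Copies were searched with exact 36-mers and blastn 2.17.0 in mm9. Starts are printed as deposited and ends less 1, which matches the annotation.

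Members called in any pair, the 3 lowest and 3 highest differences per compartment after both siRNAs and the extremes of level were given in full. From each further list at most 4 genes were named, by the size of their difference between the double knockdown and the control. Other members and genes named, such as Aars, Farsa, Tars, Yars, Atf4, Ddit3 and Eef1a2, were chosen after their values were seen. The members and lists were chosen with earlier results of these data known. Of the listed genes, Gatc, Dtd2, Prorsd1, Ppp1r15a and Trmt61a were not matched. Some items of these lists are not reported here.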

Additional observations from a re-analysis of the deposited data

How the results depend on the processing

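With 1 library per group nothing separates the siRNAs from other differences between 3 cultures, and depth limits the mitochondrial members, the lowest of which had 81 reads in the control. No paired analysis was possible because each group has 1 library and no p-value was computed. The alternatives were pseudocounts of 0.1 and 5 CPM, no filter or a filter at 5 CPM, library-total and median-of-ratios scaling, the deposited RPKM values, summed rows per symbol, no members in overlapping clusters and a 2-fold limit. Added after seeing the data were Vars2 from the row it shares with Vars and the removal of Lars2. Of the values of group medians and counts of calls, 129 stayed within the bounds set for a change, 9 moved and none reversed. Library-total scaling raised the cytosolic median to 0.29 after Ptbp1 siRNA and to 0.43 after both siRNAs, with the median of all genes at 0.06 in each. The count called higher after Ptbp1 siRNA was 0 at the 2-fold limit, 2 with a pseudocount of 0.1, 0 with a pseudocount of 5 and 2 under library-total scaling. After both siRNAs it was 0 at the 2-fold limit and 5 with a pseudocount of 5, and between the knockdowns 1 with a pseudocount of 0.1. Of the 102 values of single members, 24 moved beyond their counting interval under library-total scaling, 21 in the deposited RPKM values and 1 with Vars2 from the shared row, and no called value reversed. Signs changed only near 0, namely Vars2 and Wars2 after Ptbp1 siRNA, Mars after both siRNAs, and Cars2 and Sars2 between the knockdowns. Vars2 after Ptbp1 siRNA, for example, went from -0.03 to 0.04 under library-total scaling and to 0.15 from the row it shares with Vars. The causes of these changes were not tested.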
